A study of Mus musculus with 6 samples.

Results

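The 45 genes described here encode the machinery with which a nerve terminal docks, primes, fuses and retrieves synaptic vesicles. They were chosen by name as 4 SNARE proteins, 4 regulators of SNARE assembly, 3 proteins of SNARE disassembly, 8 synaptotagmins, 10 active zone proteins, 9 proteins of the vesicle itself, 5 endocytosis proteins and 2 vesicular glutamate transporters. Their identifiers were found among the 55450 genes of the count files through the GENCODE M21 annotation, and all 45 matched and passed the filter on low counts.

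Polyadenylated RNA of the cerebral cortex of adult mice was counted in 6 libraries, 3 of the genotype Setd5 heterozygous and 3 wild type. Setd5 is a chromatin protein with a SET domain, and the comparison asks how transcript levels in cortex differ when a single copy of its gene is mutated. The labels give no strain, sex, exact age or altered part of the gene, name no treatment, and do not say whether the libraries of a genotype are from separate animals. A p-value here thus reflects only how far these libraries spread, and that spread may be technical. In whole tissue, fewer cells of a type and less RNA per cell cannot be told apart.

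At a synapse, an action potential opens calcium channels beside docked vesicles. Synaptotagmin senses the calcium and SNARE proteins on the vesicle and the plasma membrane zip together to fuse the membranes, with complexins clamping or promoting the step. Scaffolds of the active zone hold vesicles and channels in place, and after fusion the SNARE complex is pulled apart and the vesicle membrane is taken back in. Most of these proteins come in small families of paralogs, and brain regions and cell types differ in which paralog they use.

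Totals ran from 82850628 to 92860628 counts per library and overlapped between genotypes. Setd5 itself was at 71.2 ± 3.60 CPM (the count scaled to effective library size) in the heterozygous and 105.2 ± 7.35 CPM in the wild type libraries (SD, n = 3 each), a log2 difference of -0.56 (standard error, SE, 0.07; edgeR quasi-likelihood test, Benjamini-Hochberg adjusted p = 0.258, and 3.08e-07 in DESeq2). Markers of cortical excitatory neurons were present in every library at a summed 3612 to 4123 CPM. Wild type replicate 3 stood apart, because 8 striatal markers summed to 1273 CPM in it, against 172 and 295 CPM in wild type replicates 1 and 2 and 225, 316 and 528 CPM in heterozygous replicates 1 to 3. Summed interneuron markers did not overlap between genotypes (868 to 878 CPM in heterozygous, 817 to 862 CPM in wild type), nor did endothelial markers (52.9 to 54.1 against 63.6 to 65.1 CPM). The other lists overlapped in their sums. By gene, 6 interneuron markers had a higher and 3 a lower fitted level. Reln, the only interneuron marker at an unadjusted p under 0.05, was lower, at a log2 difference of -0.19. Of 8 immediate early genes 8 had a higher fitted level in heterozygous cortex, 5 at an unadjusted p under 0.05 (610 to 1133 against 357 to 823 CPM), and of 6 oligodendrocyte markers 6 were higher, 2 at that p (9794 to 14341 against 8096 to 10626 CPM). Of 6 meningeal fibroblast markers 6 were lower, 5 at that p, and they summed to 38.5 to 43.0 CPM in heterozygous and 71.2, 88.5 and 41.5 CPM in the wild type libraries. Astrocyte (6 of 6), microglia (6 of 6) and endothelial markers (5 of 5) were lower as well, with 2, 2 and 3 at that p, and 0 marker genes of any list passed edgeR's adjusted p. Apart from the fits with a striatal covariate or with libraries left out, the part of these marker levels in the differences below was not tested.

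No release gene passed the test between genotypes. In edgeR's quasi-likelihood test with Benjamini-Hochberg adjustment 0 of 45 were called at an adjusted p under 0.05, as were 0% of the 27939 genes tested, and 0 of the 45 were called by DESeq2, limma-voom or edgeR's likelihood ratio test (DESeq2 called 0.222% of all genes). At an unadjusted p under 0.05 stood 2 of 45, Unc13c lower and Cplx3 higher in heterozygous cortex, which is 4.44% beside 5.83% of all genes tested (2.44% on the higher and 3.38% on the lower side). The libraries of the genotypes did not overlap for 6 of 45 (13.3%), 5 higher and 1 lower, beside 11.7% of all genes (5.88% higher and 5.85% lower). Fitted levels were higher in heterozygous cortex for 29 and lower for 16, beside 49.9% of all genes with a higher level, with a median log2 difference of 0.023 against -0.001 over all genes. That balance moved with the libraries: 21 were higher and 24 lower without heterozygous replicate 1 (median -0.009), and 35 higher and 10 lower without both libraries with the most striatal marker RNA (median 0.072), a setting chosen after seeing the data. Among the 7252 genes expressed at or above the lowest of the 45, 55.4% had a higher fitted level, 5.49% stood at an unadjusted p under 0.05 and 11.1% did not overlap.

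The data bound the differences closely for most of these genes. Single log2 differences ran from -0.39 to 0.31 with a median SE of 0.08. The 95% interval lay within 0.5 of 0 for 40 of the 45 and within 1 for all 45. The 5 with wider intervals were Cplx2, Cplx3, Unc13c, Synpr and Sv2c. Together the 45 genes took 1.88%, 1.80% and 1.70% of all counts over the heterozygous libraries and 1.75%, 1.72% and 1.85% over the wild type libraries (replicates 1 to 3 in order). The highest and the lowest share were both heterozygous.

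**Figure D1:**
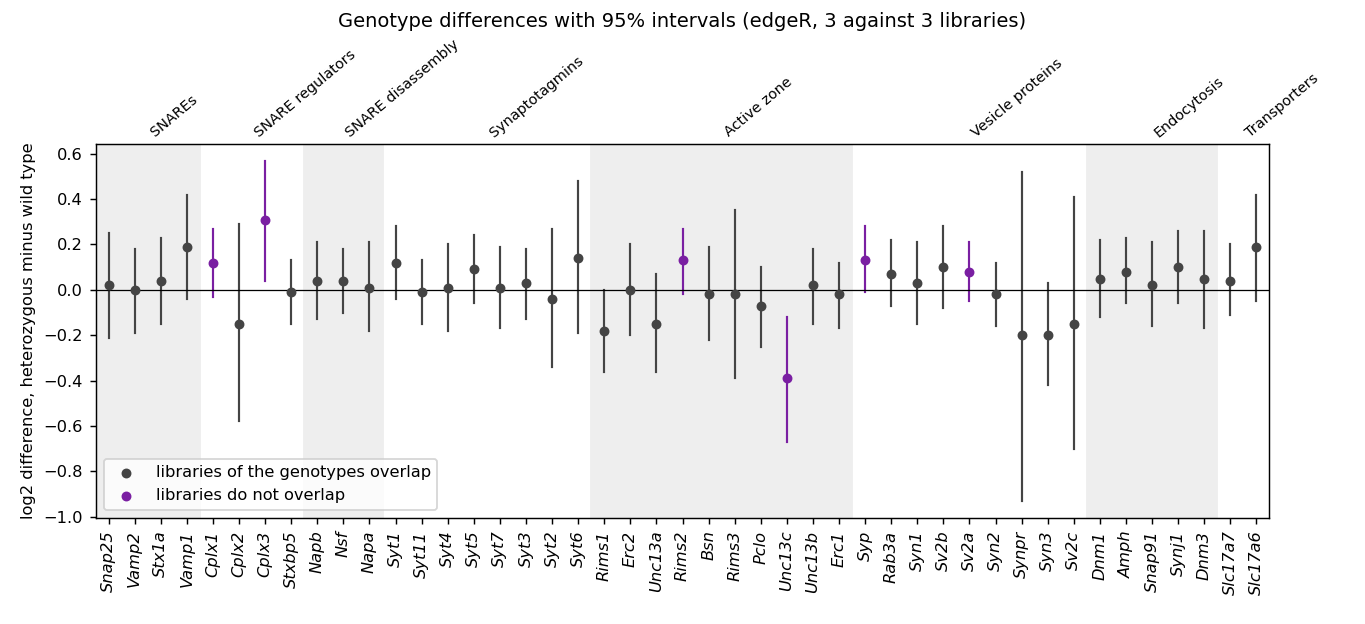
Log2 difference between heterozygous and wild type cortex (y axis) for each of the 45 genes (x axis, by role), with the 95% interval of edgeR's fit over 3 libraries each. Purple points are the 6 genes whose libraries do not overlap, and the intervals of Unc13c and Cplx3 are the ones that leave out 0.

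Transcripts of the release machinery were among the abundant messages of this tissue. On the scale of CPM per kilobase of exon (all annotated exons of a gene merged), 1 of the 45 ranked among the 100 highest genes tested, 12 among the 500 highest, 18 among the 1000 highest and 32 among the 5000 highest. Mean levels over the 6 libraries ran from Snap25, at 410 CPM per kilobase, through Syp at 251, Syt1 at 240 and Cplx1 at 234, down to Erc1 at 3.03 and Sv2c at 2.71. Snap25 lay above its next neighbour Syp in every library, but for 36 of the 44 neighbouring genes in this order the ranges overlapped. The other gaps lay between Slc17a7 and Syt11, Syt11 and Dnm1, Nsf and Sv2a, Napa and Syt5, Syn2 and Snap91, Erc2 and Unc13a, and Stxbp5 and Syt2.

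**Figure D2:**
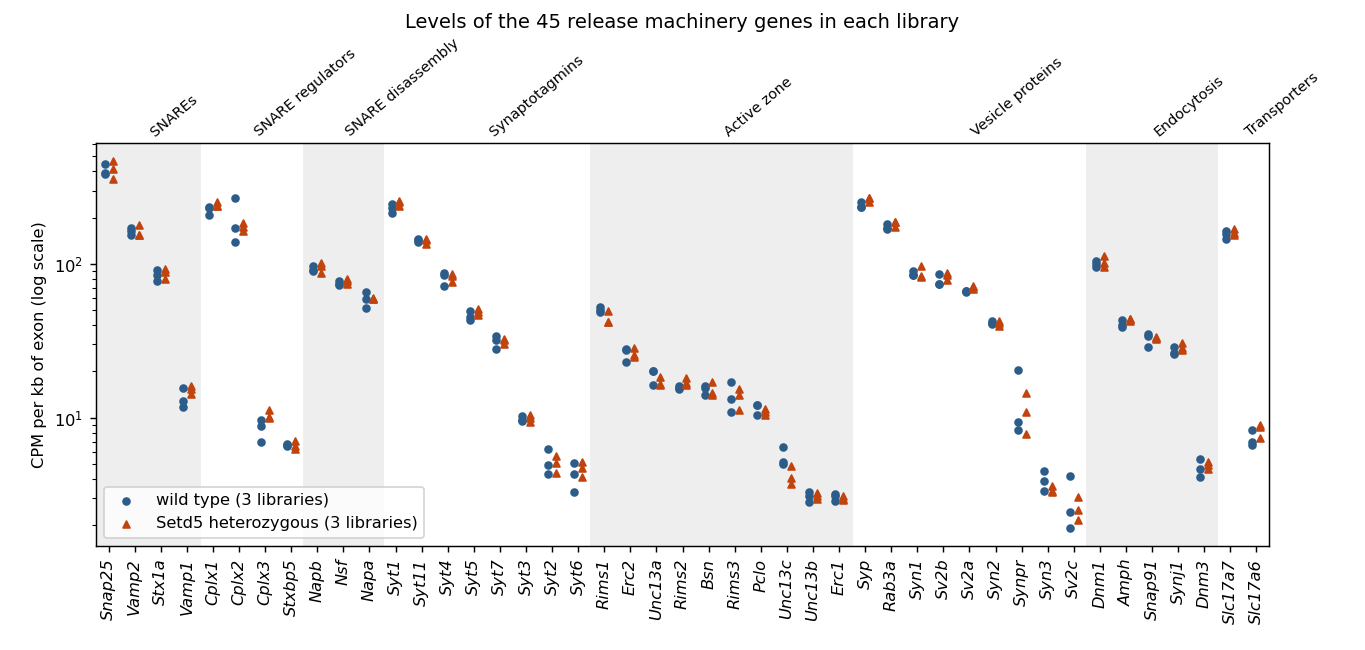
CPM per kilobase of exon (y axis, log scale) of the 45 genes (x axis, by role) in each of the 3 wild type (circles) and 3 heterozygous (triangles) libraries. Levels span from Snap25 at a mean of 410 to Sv2c at 2.71, and the genotypes overlap for all but 6 genes.

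The promoters of 4 genes are printed because the genotype and paralog comparisons turn on them: Cplx3 and Unc13c, with the smallest p among the 45, and the paralogs Slc17a7 and Slc17a6, which differ widely in level. Each is the 250 bases before the transcription start in RefSeq on GRCm38.p6, read 5′ to 3′ on the gene's strand. Capitals mark the E-box CACGTG in Cplx3 and the GC box GGGCGG, on either strand, in the others. The windows are chr9:57606282-57606531 on the minus strand for Cplx3, chr9:73969038-73969287 on the minus strand for Unc13c, chr7:45163671-45163920 on the plus strand for Slc17a7 and chr7:51621580-51621829 on the plus strand for Slc17a6. None of them holds an annotated exon of its gene in GENCODE M21.
Cplx3: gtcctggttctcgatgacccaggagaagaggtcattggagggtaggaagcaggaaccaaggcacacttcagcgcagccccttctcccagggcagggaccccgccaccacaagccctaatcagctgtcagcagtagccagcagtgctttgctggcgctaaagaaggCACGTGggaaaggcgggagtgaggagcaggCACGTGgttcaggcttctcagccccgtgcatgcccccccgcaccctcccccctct
Unc13c: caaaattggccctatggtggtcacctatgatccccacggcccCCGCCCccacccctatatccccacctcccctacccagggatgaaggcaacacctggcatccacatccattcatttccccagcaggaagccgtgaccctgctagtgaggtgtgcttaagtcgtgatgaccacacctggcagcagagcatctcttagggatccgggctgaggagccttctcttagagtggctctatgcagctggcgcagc
Slc17a7: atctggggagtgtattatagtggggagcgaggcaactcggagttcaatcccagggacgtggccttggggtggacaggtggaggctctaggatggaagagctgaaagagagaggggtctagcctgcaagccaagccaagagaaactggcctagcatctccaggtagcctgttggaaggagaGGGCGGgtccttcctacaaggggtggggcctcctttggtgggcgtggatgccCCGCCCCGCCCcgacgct
Slc17a6: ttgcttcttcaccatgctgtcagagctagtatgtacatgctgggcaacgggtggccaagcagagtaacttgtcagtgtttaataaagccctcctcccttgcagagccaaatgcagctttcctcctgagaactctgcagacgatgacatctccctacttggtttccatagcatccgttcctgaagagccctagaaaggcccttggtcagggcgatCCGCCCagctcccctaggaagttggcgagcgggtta

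RefSeq promoters of this length were held for 38 of the 45 genes, and none was held for Snap25, Vamp2, Syt4, Syt5, Syt7, Rims2 and Syn3. Their median GC content was 61.2% against 52.0% over 27025 genes, and their median number of CpG dinucleotides was 14 against 6. The GC box GGGCGG, a binding motif of Sp-family factors, was found on either strand in 25 of 38 (65.8%) against 32.9% of all promoters. The E-box CACGTG was found in 5 (13.2%) against 6.05%, and TGACG, the core of the cAMP response element, in 7 (18.4%) against 17.9%. The TATA box TATAAA was found in 1 (2.63%) against 13.0%. These are matches of letters in a window and were compared with no test. For the 45 the RefSeq start nearest the GENCODE start was used, and for the 27025 genes, not filtered by expression, the first listed. The start used lay 68793 bases from the GENCODE start for Cplx2 and 2565 bases for Syt11. Cplx3 carried 2 E-boxes, at bases -85 to -80 and -55 to -50 before the start, and no GC box. Slc17a7 carried 3 GC boxes, of which 2 meet at base -13, Slc17a6 carried 1 at -36 to -31, and Unc13c carried 1 at -208 to -203.

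The SNARE proteins form the fusion complex itself. Snap25, a SNARE of the plasma membrane, was at 3156, 2834 and 2428 CPM in heterozygous replicates 1 to 3 and at 2606, 2639.7 and 3047 CPM in the wild type libraries in the same order. The highest and the lowest of the 6 values were both heterozygous, and the log2 difference was 0.02 (SE 0.10, 95% interval -0.21 to 0.25). Stx1a, syntaxin 1A of the plasma membrane, differed by 0.04 (SE 0.08) and Vamp2, the vesicle SNARE synaptobrevin 2, by 0.00 (SE 0.08). Vamp1, its paralog, was at 163, 157 and 146 CPM in heterozygous and 120, 130 and 159 CPM in wild type replicates 1 to 3. Of the wild type libraries only replicate 3 reached the heterozygous range. The log2 difference of 0.19 (SE 0.10) stood at 0.31 without that library (edgeR's quasi-likelihood test, unadjusted p = 0.00141, adjusted p = 0.299). It stood at 0.10 without wild type replicate 1. None of the 4 SNARE genes passed edgeR's quasi-likelihood test (adjusted p from 0.864 to 0.996).

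Among the regulators of SNARE assembly, complexins bind the partly zipped complex. Cplx3, a complexin known from retinal ribbon synapses and from deep cortical layers, was at 29.7, 29.6 and 33.3 CPM in heterozygous replicates 1 to 3 and at 20.4, 26.1 and 28.4 CPM in wild type replicates 1 to 3. Every heterozygous library lay above every wild type library, and wild type replicate 1 was the lowest. The log2 difference was 0.31 (SE 0.12, 95% interval 0.04 to 0.57; edgeR's quasi-likelihood test, unadjusted p = 0.0266, adjusted p = 0.838). With wild type replicate 1 left out it was 0.18, and with replicate 3 left out 0.41. The summed level of 5 markers of layer 6 and 6b was lowest in the same library, at 96.7 CPM. It was 143 and 145 CPM in the other wild type libraries and 122 to 139 CPM in the heterozygous ones. By gene, 2 of these markers had a higher and 3 a lower fitted level in heterozygous cortex. Moxd1, the only one at an unadjusted p under 0.05 in edgeR's quasi-likelihood test, was lower, at a log2 difference of -0.54. Nxph4 was lowest in heterozygous replicate 1. The part of these markers in the Cplx3 difference was not tested.

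Cplx1 was at 553, 522 and 524 CPM in heterozygous and 457, 510.0 and 503 CPM in the wild type libraries in the same order. The groups lay next to each other without overlap, with a log2 difference of 0.12 (SE 0.07) that was 0.07 without wild type replicate 1, the lowest library. Cplx2 was at 906, 858 and 810.4 CPM in heterozygous and 849, 683 and 1316 CPM in the wild type libraries in the same order. The third wild type library was the highest by a wide margin, and the log2 difference of -0.15 (SE 0.19) stood at 0.16 without it. Stxbp5, or tomosyn, which competes with the vesicle SNARE, differed by -0.01 (SE 0.06). SNARE complexes are pulled apart by the ATPase Nsf with its adaptors Napa and Napb, and these 3 genes differed by 0.04 (SE 0.06), 0.01 (SE 0.09) and 0.04 (SE 0.08), with intervals between -0.18 and 0.21. Napb, the adaptor with the higher level, was at 714, 687 and 614 CPM in heterozygous and 641, 687 and 632 CPM in wild type libraries, and these ranges overlapped.

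Synaptotagmins are membrane proteins with paired C2 domains, several of which bind calcium. Syt1, the fast calcium sensor of forebrain synapses, was at 2099, 2155 and 1990.1 CPM in heterozygous and 1920.1, 2040.2 and 1798 CPM in the wild type libraries in the same order. The groups overlapped between heterozygous replicate 3 and wild type replicate 2, and the log2 difference was 0.12 (SE 0.07), or 0.07 without wild type replicate 3. Syt2, the fast sensor that prevails in hindbrain, differed by -0.04 (SE 0.14), and by 0.12 without wild type replicate 3. Syt7, a high-affinity sensor linked to facilitation and slow release, differed by 0.01 (SE 0.08), and Syt3 by 0.03 (SE 0.07). Syt4 and Syt11, whose first C2 domain does not bind calcium, differed by 0.01 (SE 0.08) and -0.01 (SE 0.06). Syt5 stood at 0.09 (SE 0.07) and Syt6 at 0.14 (SE 0.15), with -0.01 for Syt6 when the first and 0.30 when the third wild type library was left out. None of the 8 had libraries that separated the genotypes, and their adjusted p by edgeR's quasi-likelihood test ran from 0.872 to 0.994.

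The active zone group held the largest difference in size. Unc13c encodes Munc13-3, a priming factor best known from cerebellar granule cells, and in GRCm38 it spans chromosome 9 from 73479422 to 73968966, transcribed from the minus strand. CPM values were 32.5, 35.7 and 42.8 in heterozygous and 45.6, 43.7 and 56.5 in wild type replicates 1 to 3. Each heterozygous library lay below each wild type library, although heterozygous replicate 3 and wild type replicate 2 were close. The log2 difference was -0.39 (SE 0.12, 95% interval -0.67 to -0.12; edgeR's quasi-likelihood test, unadjusted p = 0.00969, adjusted p = 0.797). Wild type replicate 3, the library with most striatal marker RNA, was also the one with most Unc13c, and without it the difference was -0.27. With the striatal marker level as a covariate it was -0.35, and without both libraries with the most striatal marker RNA it was -0.39. Both settings were chosen after seeing the data. Across the fits with 1 library left out the difference ran from -0.52 (without heterozygous replicate 3) to -0.27 (without wild type replicate 3).

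The other Munc13 genes lay closer to 0. Unc13a, the main priming factor of glutamatergic synapses, was at 234, 208 and 205 CPM in heterozygous and 255, 206 and 255 CPM in wild type replicates 1 to 3. Wild type replicate 2 lay among the heterozygous libraries. The log2 difference was -0.15 (SE 0.10). Without wild type replicate 2 it was -0.25 (edgeR's quasi-likelihood test, unadjusted p = 0.00989, adjusted p = 0.504). It lay between that and -0.10 whichever library was left out. Unc13b differed by 0.02 (SE 0.07).

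RIM proteins tether vesicles to calcium channels and recruit Munc13. Rims1 was at 364, 307 and 309 CPM in heterozygous and 384, 357 and 367 CPM in wild type replicates 1 to 3. Heterozygous replicate 1 reached into the wild type range, and the log2 difference was -0.18 (SE 0.08; unadjusted p = 0.0531, adjusted p = 0.855 by edgeR's quasi-likelihood test), or -0.27 without that library. Rims2 was at 188, 176 and 169.8 CPM in heterozygous and 168, 161 and 159 CPM in the wild type libraries in the same order. The groups did not overlap, with the log2 difference of 0.13 (SE 0.06) opposite in sign to that of Rims1 (0.08 without heterozygous replicate 1). Rims3, a short form without the amino-terminal domains, differed by -0.02 (SE 0.16), and by 0.17 without wild type replicate 3. The giant scaffolds Bsn and Pclo, bassoon and piccolo, differed by -0.02 (SE 0.09) and -0.07 (SE 0.08), and the ELKS scaffolds Erc1 and Erc2 by -0.02 (SE 0.07) and 0.00 (SE 0.09).

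**Figure D3:**
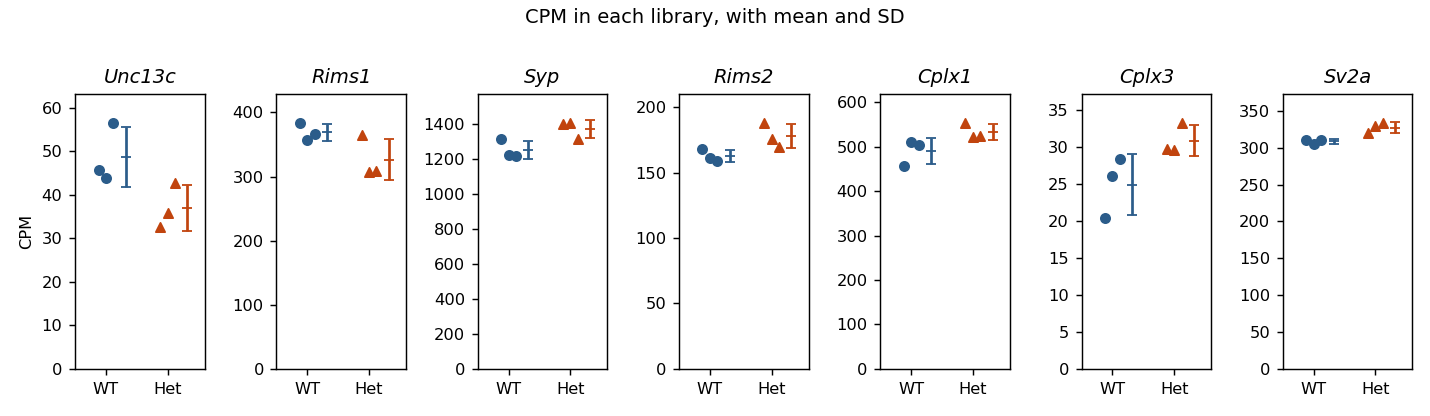
CPM (y axis, from 0) of the 6 genes whose libraries do not overlap, and of Rims1, in each wild type (circles) and heterozygous (triangles) library, with the mean and SD of 3 beside the points. Unc13c is lower in heterozygous cortex at 32.5 to 42.8 against 43.7 to 56.5 CPM, and Cplx3 higher at 29.6 to 33.3 against 20.4 to 28.4 CPM.

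Among the proteins of the vesicle, synaptophysin (Syp) was at 1395, 1403 and 1312 CPM in heterozygous and 1309, 1222 and 1216 CPM in the wild type libraries in the same order. The lowest heterozygous and the highest wild type library were almost level, and the log2 difference was 0.13 (SE 0.07; adjusted p = 0.864 by edgeR's quasi-likelihood test). Of the exon bases of Syp 16.8% lie under an antisense gene, whose reads cannot be told apart with a kit that does not mark strand. Sv2a, a glycoprotein of vesicles and the target of levetiracetam, was at 319.5, 329 and 333 CPM in heterozygous and 311, 305 and 311 CPM in wild type replicates 1 to 3. These groups did not overlap either, at a log2 difference of 0.08 (SE 0.06). Sv2b differed by 0.10 (SE 0.08), or 0.17 without wild type replicate 2, and the small GTPase Rab3a, which binds RIM on docked vesicles, by 0.07 (SE 0.07).

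The synapsins, which cluster the reserve pool of vesicles, differed by 0.03 (SE 0.08) for Syn1 and -0.02 (SE 0.06) for Syn2. Syn3 was at 41.3, 40.1 and 44.0 CPM in heterozygous and 47.8, 55.0 and 40.9 CPM in wild type replicates 1 to 3. In wild type replicate 3 the level lay inside the heterozygous range, and the log2 difference of -0.20 (SE 0.10) stood at -0.30 without it and at -0.09 without wild type replicate 2. The gene shares 14.1% of its exon bases with Timp3 on the other strand.

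Several genes were highest in the library with most striatal marker RNA. Sv2c was at 40.5 CPM in wild type replicate 3, against 18.7 and 23.7 CPM in the other wild type libraries and 20.9, 24.3 and 29.8 CPM in heterozygous replicates 1 to 3, and its order over the 6 libraries was that of the summed striatal markers. Synpr, or synaptoporin, was at 194 CPM in that library, against 78.1 and 88.9 CPM in the other wild type libraries and 136, 74.4 and 103 CPM in heterozygous replicates 1 to 3. Synpr was also high in heterozygous replicate 1, whose striatal marker level was among the low ones. The log2 differences of -0.15 (SE 0.25) for Sv2c and -0.20 (SE 0.32) for Synpr stood at 0.24 and 0.32 without wild type replicate 3. With the striatal marker level as a covariate, an alternative chosen after seeing the data, they were 0.02 and 0.03.

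Leaving out that library also changed how many of the 45 genes stood at an unadjusted p under 0.05 in edgeR's quasi-likelihood test. There were 8 of 45 without it, 5 higher (Vamp1, Cplx3, Syt6, Synj1 and Slc17a6) and 3 lower (Unc13c, Pclo and Syn3), beside 6.69% of all genes tested in that fit. None of them passed at an adjusted p under 0.05. Without wild type replicate 2 there were 5 of 45 (11.1%), namely Cplx3 and Sv2b higher and Rims1, Unc13a and Unc13c lower, beside 8.89% of all genes, and without wild type replicate 1 there was 1, beside 6.63%. The count was 9 beside 7.91% of all genes when limma-voom weighted the libraries by quality, and 10 beside 7.89% without both libraries with the most striatal marker RNA. Wild type replicate 3 held the highest value of 9 of the 45 genes and the lowest of 12, and heterozygous replicate 1 held the highest of 17.

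**Figure D4:**
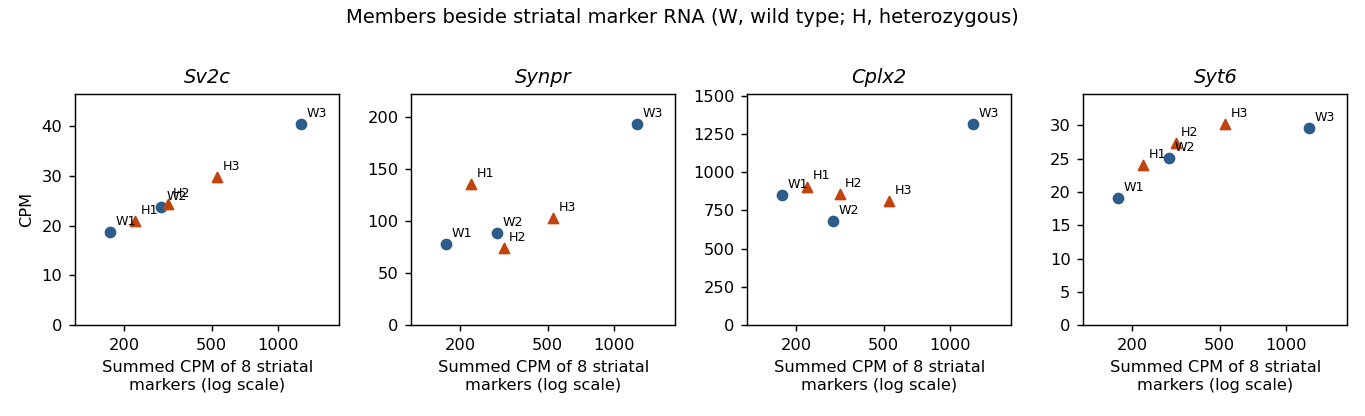
CPM of Sv2c, Synpr, Cplx2 and Syt6 (y axis, from 0) against the summed CPM of 8 striatal markers (x axis, log scale) in the 6 libraries, wild type as circles (W1 to W3) and heterozygous as triangles (H1 to H3). Wild type replicate 3, at 1273 CPM of striatal markers, is the highest library for Sv2c, Synpr and Cplx2.

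Retrieval of vesicle membrane uses dynamins to cut the vesicle neck, amphiphysin (Amph) to bring dynamin there, the clathrin adaptor AP180 (Snap91) and the lipid phosphatase synaptojanin 1 (Synj1), which helps to uncoat. Dnm1, the neuronal dynamin, was at 594, 528 and 503 CPM in heterozygous and 526, 501 and 545 CPM in the wild type libraries in the same order. The ranges overlapped almost wholly and the log2 difference was 0.05 (SE 0.08). Dnm3, Synj1, Amph and Snap91 differed by 0.05 (SE 0.10), 0.10 (SE 0.07), 0.08 (SE 0.06) and 0.02 (SE 0.08), and that of Synj1 lay between 0.05 and 0.15 whichever library was left out. In this group 5 of 5 had a higher fitted level and 0 of 5 passed edgeR's quasi-likelihood test (adjusted p from 0.880 to 0.984).

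Vesicles of glutamatergic neurons are filled by Slc17a7 (VGLUT1), the main transporter of cortical neurons, or Slc17a6 (VGLUT2), which in cortex is best known from terminals of thalamic axons. Slc17a7 was at 908, 856 and 829.9 CPM in heterozygous and 849, 881 and 787 CPM in the wild type libraries in the same order. The groups overlapped, at a log2 difference of 0.04 (SE 0.07). Slc17a6 was at 48.4, 46.8 and 39.7 CPM in heterozygous and 37.7, 35.8 and 45.2 CPM in wild type replicates 1 to 3. Here heterozygous replicate 3 and wild type replicate 3 crossed over, and the log2 difference of 0.19 (SE 0.10) stood at 0.29 without wild type replicate 3 and at 0.11 without wild type replicate 2. Thalamic markers summed to between 12.8 and 14.1 CPM over the 6 libraries and overlapped between genotypes.

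Paralogs of 13 families were set side by side as shares of the CPM per kilobase summed over the family's genes among the 45. Relatives outside the 45 were not in these sums. Among them were Vamp4, Vamp3 and Dnm2, at mean levels of 23.3, 12.6 and 8.05 CPM per kilobase. Others were Syt13 at 58.9, above Syt5 at 47.3, Syt16 at 13.9, and Napg at 28.3 beside Napa at 59.1. In the VAMP, synaptophysin, ELKS, dynamin and transporter families the leading gene held from 88.1% to 97.2% of this sum in every library. Vamp2 stood 11.4-fold above Vamp1, Erc2 8.66-fold above Erc1, and Slc17a7 20.2-fold above Slc17a6. Syp stood 21.1-fold above Synpr and Dnm1 21.1-fold above Dnm3. The figure for the dynamins was 7.41 when the length of the longest transcript was used in place of the merged exons, since the merged exons of Dnm3 cover 24452 bases and its longest transcript 7523. In the other families the leaders were closer: Cplx1 held 45.4% to 61.3% of complexin message and overlapped with Cplx2, while Cplx2 stood 19.4-fold above Cplx3. The mean Sv2b level was 1.18-fold that of Sv2a (1.68-fold by the longest transcript), and Sv2a stood 25.3-fold above Sv2c. Syn1 stood 2.11-fold above Syn2, Napb 1.59-fold above Napa, Bsn 1.36-fold above Pclo, Rims1 2.88-fold above Rims2 and Unc13a 3.70-fold above Unc13c. With the longest transcript as the length these folds were 1.17, 1.69, 1.21, 1.52 and 4.55, so the synapsins came close to level. Syn2 stood 11.3-fold above Syn3 (8.01-fold by the longest transcript). Syt1 held 40.8% to 44.2% of the message of the 8 synaptotagmins, followed by Syt11 at 23.7% to 27.1% and Syt4 at 13.6% to 15.3%. Syt1 stood 1.69-fold above Syt11, and 2.83-fold by the longest transcript. Within families the ranges of neighbours overlapped in 3 of 24 cases, which were Syt2 with Syt6, Cplx1 with Cplx2 and Rims2 with Rims3. The order of Syt2 and Syt6 turned with the longest transcript as the length.

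**Figure D5:**
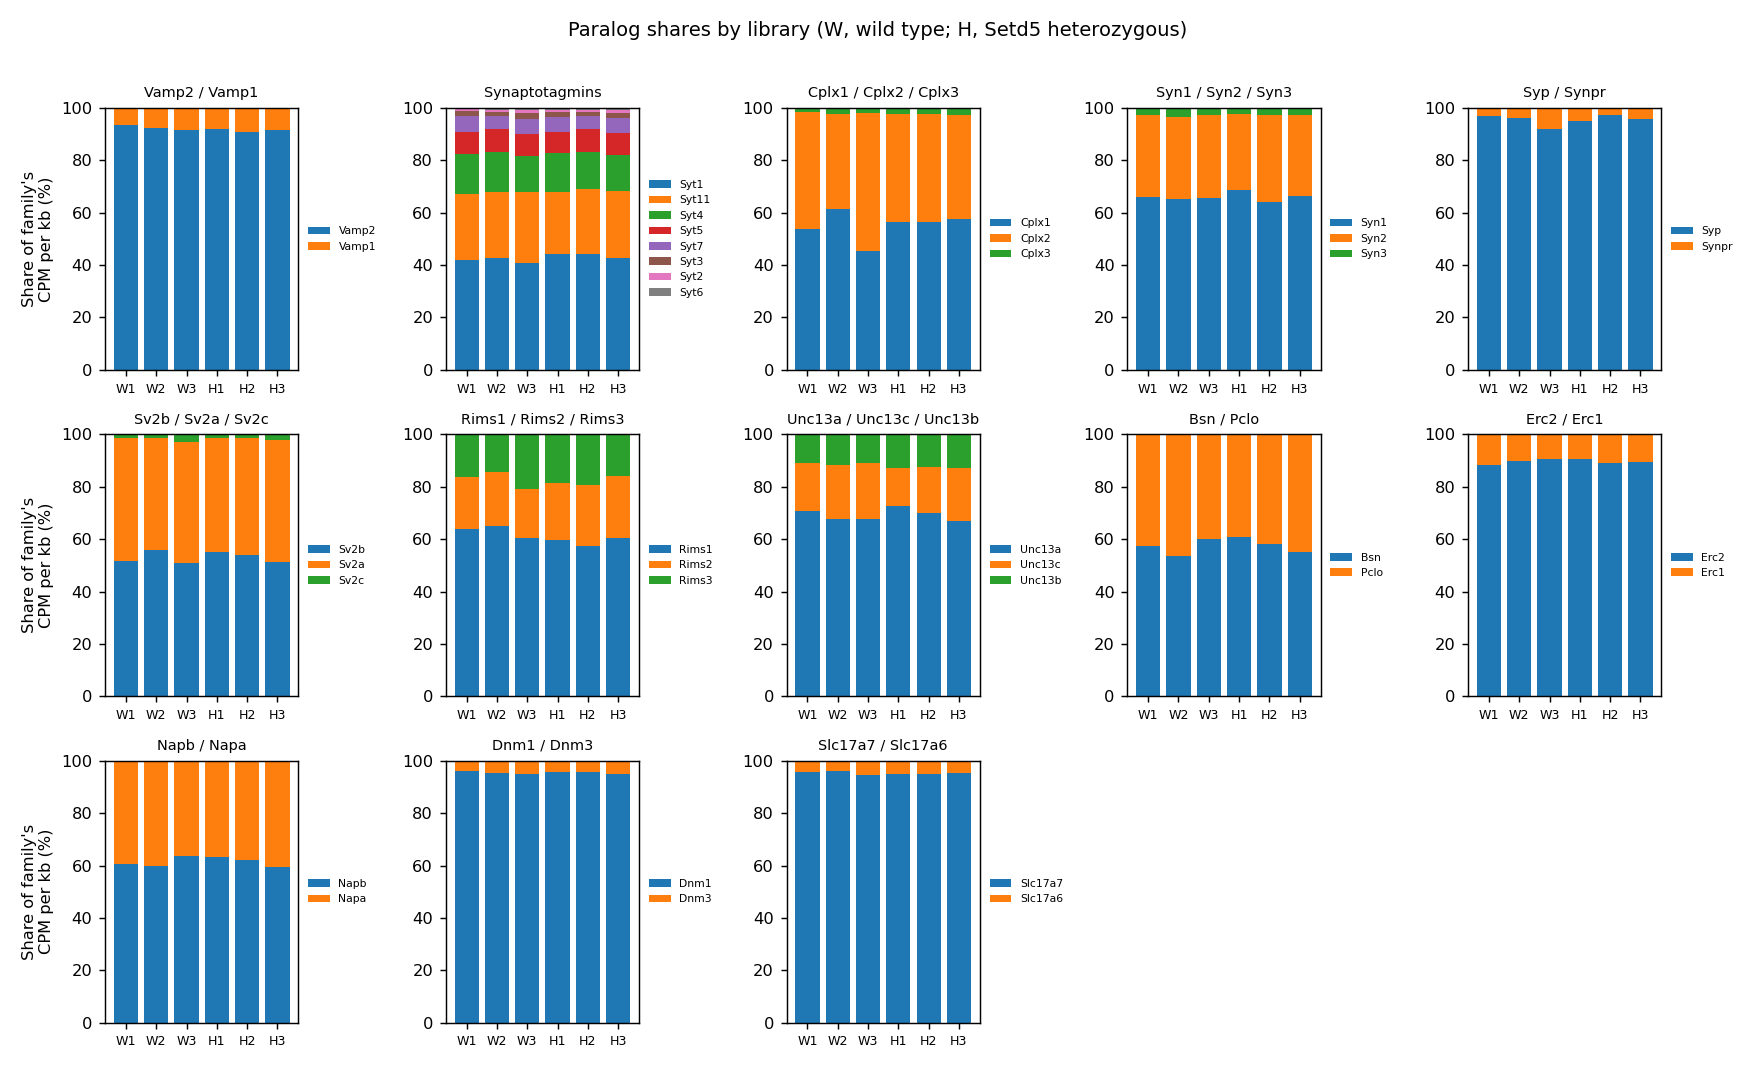
Share of each paralog in its family's summed CPM per kilobase (y axis, percent) in wild type libraries W1 to W3 and heterozygous libraries H1 to H3. A family here holds only its genes among the 45. Bars of the 2 genotypes look alike in most families, and the share of Rims1 is 57.3% to 60.4% in heterozygous and 60.5% to 64.8% in wild type libraries.

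The balance between paralogs was compared as the log2 ratio of the leading gene to the rest of its family among the 45. In 1 of 13 families the libraries of the genotypes did not overlap, beside 11.7% of all genes tested as single genes. Rims1 made up 59.6%, 57.3% and 60.4% of the summed level of Rims1, Rims2 and Rims3 in heterozygous and 63.9%, 64.8% and 60.5% in wild type replicates 1 to 3. Rims4, at a mean of 20.9 CPM per kilobase, lies outside the 45 and was not in this sum. The third wild type library was all but level with heterozygous replicate 3, and the log2 ratio differed by -0.24 (two-sided exact permutation p = 0.1, the smallest that 3 against 3 can give, and 0.867 adjusted over the 13 families). Among the 50 pairs of paralogs, computed after the values were seen, 3 did not overlap, beside the same 11.7% of single genes. The ratio of Rims2 to Rims1 was 0.366, 0.406 and 0.390 in heterozygous and 0.311, 0.320 and 0.307 in wild type replicates 1 to 3. Its group means were 0.387 ± 0.0201 and 0.313 ± 0.0064 (SD, n = 3 each). The ratio of Unc13b to Unc13a was 0.182 ± 0.00859 against 0.163 ± 0.00925 and that of Unc13b to Unc13c 0.748 ± 0.119 against 0.559 ± 0.0452 (SD, n = 3 each). Each of these 3 pairs had an exact permutation p of 0.1 and an adjusted p of 0.978 over the 50 pairs.

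Other genes of vesicle release, 60 of them tested, were listed beside the 45. Fitted levels were higher for 37 and lower for 23, with a median log2 difference of 0.025. In edgeR's quasi-likelihood test with Benjamini-Hochberg adjustment 0 passed, as in DESeq2, and 7 stood at an unadjusted p under 0.05 (11.7% against 5.83% of all genes), 3 higher and 4 lower. On the lower side stood Syt9, Syt17 and Syt10, further synaptotagmins, with log2 differences of -0.36 (SE 0.13), -0.25 (SE 0.10) and -0.39 (SE 0.15). The remaining one was the small GTPase Rab3c, at -0.20 (SE 0.09). Syt9 and Syt10 were low in both genotypes, at 4.63 to 7.09 CPM and 4.01 to 6.62 CPM. On the higher side were Doc2a, a calcium sensor of spontaneous and asynchronous release, at 0.32 (SE 0.13), Prrt2, a SNARE-binding membrane protein mutated in paroxysmal dyskinesia, at 0.16 (SE 0.07), and Sh3gl1, an endophilin, at 0.16 (SE 0.07). Doc2a was at 47.1, 52.7 and 48.0 CPM in heterozygous and 44.0, 44.4 and 30.3 CPM in the wild type libraries in the same order. The groups did not overlap, and wild type replicate 3 was well below the other 5 libraries. Without it the difference of Doc2a was 0.16. For Syt17 the value was -0.14 without wild type replicate 1, for Syt9 -0.25 and for Syt10 -0.26 without wild type replicate 3, and for Prrt2 0.11 without wild type replicate 2.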

How the data were processed

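The authors deposited 1 table of raw read counts per gene for each library, in whole numbers without normalization. The submitters' processing notes name FastQC, Bowtie2 2.3.4.3, featureCounts, DESeq2 and the builds mm10 and GRCm38.p6, without order, settings or strand option. Per the labels' protocols Trizol-extracted, DNase I-treated RNA went into a TruSeq v2 library kit for RNA, and this chemistry keeps no strand information.

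The 45 genes, their roles and families and the marker lists were chosen with earlier results of these data known. Genes passing filterByExpr of edgeR (minimum count 10, minimum total 15) were scaled by TMM and compared with edgeR's quasi-likelihood test (edgeR 4.0.16, R 4.3.3; no covariate), with Benjamini-Hochberg adjustment over 27939 genes at 0.05; the fit was tested on simulated data. The common biological coefficient of variation was 16.1%. Chi-square per gene between libraries was 11.7 to 94.4, so none was taken as a repeat deposit. The lowest value was that of heterozygous replicates 1 and 2. Heterozygous replicate 3 was closest to wild type replicate 2 (26.1), and wild type replicate 1 to heterozygous replicate 1 (17.1). Genes named were those past the threshold, up to 12 with separated groups, the leading gene of each role, the first and last paralog of each family, and up to 3 per direction of the other release genes; further values of the 45 complete the account. Alternatives were other scalings and filters, DESeq2 1.42.0, limma-voom (limma 3.58.1), other edgeR tests, another gene length and each library left out.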

Additional observations from a re-analysis of the deposited data

How the results depend on the processing

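Across the alternatives run, 0 of the 45 release genes passed an adjusted p under 0.05. Of these genes 24 took the other sign under at least 1 alternative while 21 did not. Some moved by more than the SE of the fit to all 6 libraries. Without both libraries with the most striatal marker RNA, Vamp1 went from 0.19 (SE 0.10) to 0.36 and Synpr from -0.20 (SE 0.32) to 0.33. The median log2 difference ran from -0.009 without heterozygous replicate 1 to 0.072 without both libraries with the most striatal marker RNA, a setting that, like the striatal covariate, was chosen after seeing the data. At an unadjusted p under 0.05 stood 2 of the 45, beside 5.83% of all genes tested. Under the alternatives this count ran from 1 (without wild type replicate 1, beside 6.63%) to 10 (without both most striatal libraries, beside 7.89%). It was 9 when limma-voom weighted libraries by quality, beside 7.91%. For all genes tested edgeR called 0, against 6 with every gene of at least 1 count, 62 with DESeq2, 2 with limma-voom and library quality weights, 29 with the likelihood ratio test and 1 with the robust test, and from 0 to 2 with a library left out (2 without wild type replicate 2); the cause was not tested. Setd5 passed with every gene of at least 1 count (log2 -0.57, adjusted p = 0.0119), DESeq2 (-0.57, 3.08e-07), limma-voom with library quality weights (-0.59, 0.0444) and the likelihood ratio test of edgeR (-0.56, 7.31e-05). Families whose leading share did not overlap numbered from 1 to 3 with a library left out, where fewer libraries separate more easily. No paired analysis was possible because replicate numbers here only follow record order. The lowest value of a release gene in any library was 18.7 CPM (Sv2c), far above the limit that a count of 0 allows.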
